A study of Mus musculus with 38 samples.

Results

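The spleens of DBA/2J mice and of mice labelled BI6Jx were compared for their early response to a low dose of X-rays. These are the parents of the BXD panel of recombinant inbred lines, and BI6Jx is taken here as the C57Bl6/J of the study, a reading that the labels themselves do not spell out. The arrays were chosen by strain label alone, which gave 4 DBA/2J arrays and 4 BI6Jx arrays, 8 of the 38 in the series. All mice were males of 10 to 14 wk by the labels. Irradiated mice received 10 rad (10 cGy) of X-rays in vivo, control mice were sham-exposed, and spleen was taken 3.5 hr later. Neither strain carried a transgene or another treatment. Each array held RNA of 1 irradiated and 1 sham mouse of the same strain in the dyes Cy3 and Cy5. By the study's design each pair of mice was hybridised again with the dyes exchanged, so arrays of a strain may share mice. The least number of pairs per strain that the study states, each hybridised in both dye orders, would need more than these 4 arrays. The labels do not say which arrays belong to the same pair, and the number of mice behind the 4 arrays of a strain is not known here. The tests below count each array as a separate sample, so their p-values are too small where arrays share mice.

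Spleen filters blood and holds large zones of B cells and T cells, together with macrophages and, in mice, red cell precursors. Lymphocytes are among the most radiosensitive cells of the body. DNA breaks activate the kinase ATM and through it the transcription factor p53, whose targets stop the cell cycle, repair DNA or start apoptosis. Inbred strains differ in radiation sensitivity, and DBA/2J and C57BL/6 differ at many immune and metabolic genes. On these arrays such a constant strain difference cancels, because both dyes carry RNA of 1 strain. What remains is the response to irradiation, the difference between 2 individual mice, and any bias of the dyes.

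The deposited value of a spot is a signed score. Its scale, log base and dye direction are not known, so no fold changes are given. Each array was centred on its median over probes, and the sign was turned where irradiated RNA was in Cy3. A positive turned value then means more signal from irradiated RNA, if the deposited scores are Cy5 over Cy3. The study describes Ltbp2, a matrix gene given further on, as lower after irradiation, which is the opposite of its turned sign here under that reading. The response of a strain is the mean of its Cy5 and Cy3 cells of turned values. A bias of the dyes cancels in it only where that bias is the same on the Cy5 and the Cy3 arrays. The strain difference is the DBA/2J response minus the BI6Jx response, and the shared response is the mean of both. Of 21618 probes, 14710 (68%) had values in every cell of strain and dye and on at least 6 arrays. Of these, 4431 could be named, and 8467 had values on all 8 arrays, 2489 of them named.

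The arrays did not agree on what the dyes did. Without turning any sign, 6 arrays (34, 83 and 70 of DBA/2J, and 11, 96 and 95 of BI6Jx) correlated with each other at r = 0.5 to 0.8 across probes, although irradiated RNA was in Cy5 on 4 of them and in Cy3 on 70 and 95. Array 68 of DBA/2J stood apart, with r between -0.05 and 0.19 against the other 7. Array 97 of BI6Jx ran opposite to the 6, with r between -0.69 and -0.48, and its correlation with array 95, which has the same strain and orientation, was -0.57. The direction of array 97 is thus not settled, and comparisons are given as labelled and with its sign turned ("turned" for short). The mean pattern of the other 4 strains (30 arrays, balanced over dyes, signs not turned) correlated with array 97 at -0.56, with array 68 at 0.09, and with the other 6 at 0.47 to 0.65. The number of probes with a value ran from 12059 on array 97 to 19082 on array 83.

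**Figure D1:**
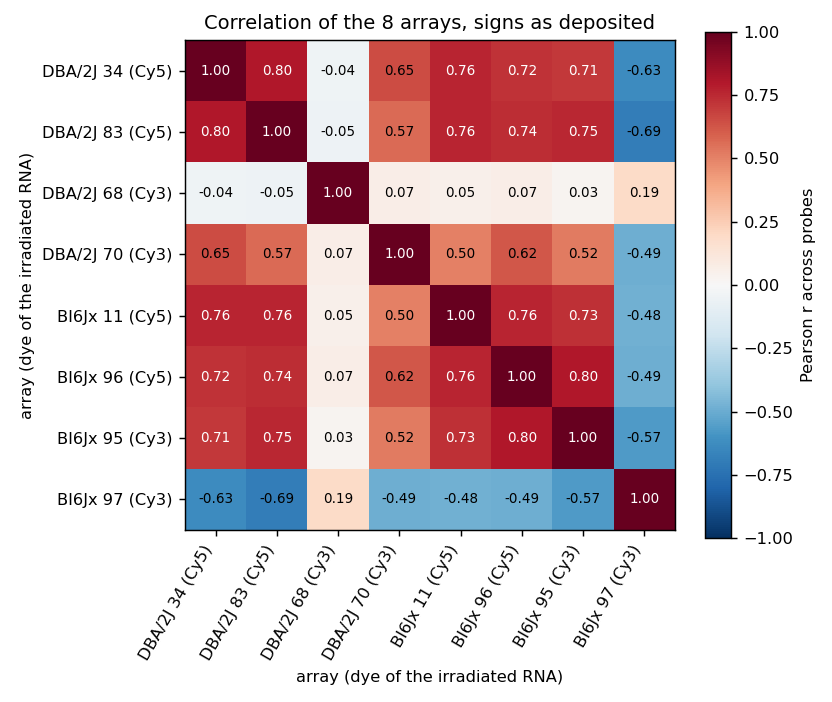
Pearson correlation across probes between each pair of the 8 arrays, with signs as deposited; the dye in brackets is that of the irradiated RNA. The red block joins 6 arrays of both strains and both orientations, array 68 is near 0 with all others, and array 97 is negative with those 6.

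No probe passed a Benjamini-Hochberg adjusted p under 0.05 in limma for a strain difference (0 of 14710, 0%), and none for a shared response (0%), for a response in DBA/2J (0%) or in BI6Jx (0%). At an unadjusted p under 0.05, 235 probes (1.6%) differed between the strains, 107 with DBA/2J higher and 128 with DBA/2J lower. For a shared response 1423 probes (9.67%) had such a p, 1186 on the positive side and 237 on the negative. The median standard error was 0.55 for a difference and 0.27 for a shared response. With the sign of array 97 turned, 0 probes passed the adjusted threshold for a difference (limma, 1058 or 7.19% at the unadjusted p) and 0 for a shared response (1286 at the unadjusted p), and 2 passed for BI6Jx. With array 97 as labelled and array 95 left out, the fit passed 3755 probes for a shared response and 3184 for BI6Jx, with array 97 then the only BI6Jx array with irradiated RNA in Cy3.

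Across the 14710 probes the responses of the 2 strains correlated at r = 0.6 as labelled. That likeness depended on array 97 as labelled. With its sign turned r was -0.03, and without it r was -0.08. A bias of the dyes, the mean of all cells before turning, passed an adjusted p under 0.05 in limma at 34 probes as labelled and at 4463 with array 97 turned.

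**Figure D2:**
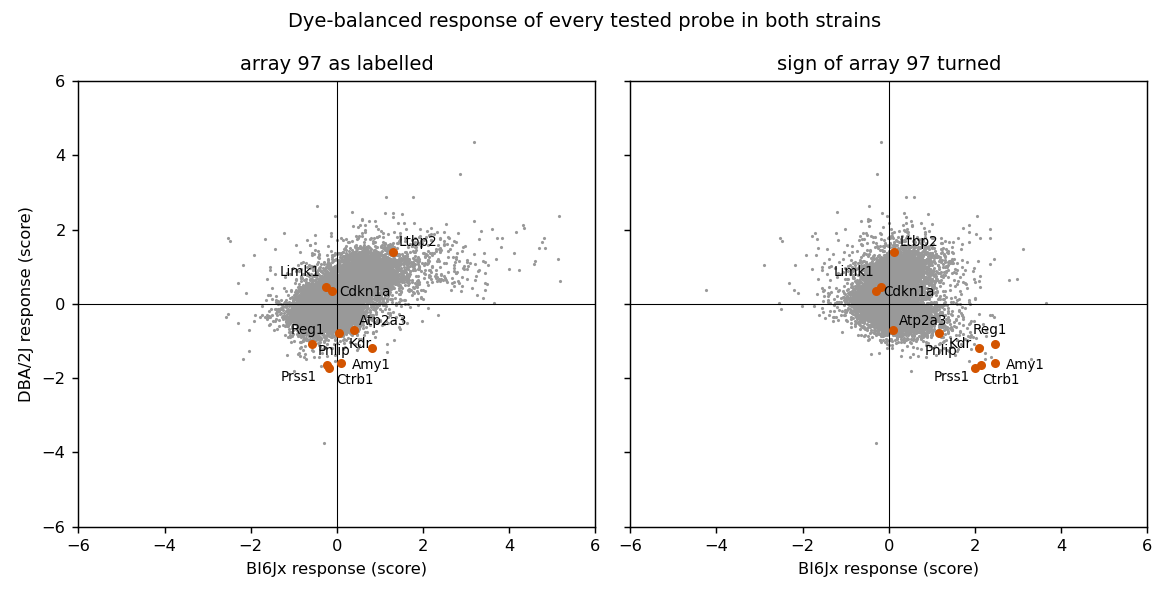
Response of DBA/2J (y axis) against that of BI6Jx (x axis), in score units, for each tested probe (grey; 1 probe lies outside the axes), with array 97 as labelled (left) and with its sign turned (right). Orange points are named genes. The diagonal cloud on the left (r = 0.6) becomes round on the right (r = -0.03), while Prss1, Ctrb1, Amy1, Pnlip and Reg1 move to the lower right.

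Genes with 1 sign on all 8 turned arrays were picked to describe those that move alike in both strains. Whether they are more than random signs would give was not tested. There were 12 such probes on the positive side (0.142% of 8467) and 41 on the negative side (0.484%), of which 3 and 13 could be named. On the positive side St3gal4, a sialyltransferase of the Golgi, had turned values of 1.42, 1.46, 0.06 and 0.27 on DBA/2J arrays 34, 83, 68 and 70. On BI6Jx arrays 11, 96, 95 and 97 it had 2.31, 0.61, 0.23 and 0.56. The Cy5 arrays carried most of this signal in both strains, and the strain means of 0.80 ± 0.74 and 0.93 ± 0.94 (SD, n = 4 each) did not separate. Its shared response was 0.87 ± 0.23 (SE; adjusted p = 0.504, limma), and 0.72 with array 97 turned. Reg3b, a secreted lectin of gut and pancreas, was at 0.40 ± 0.29 in DBA/2J and 0.27 ± 0.15 in BI6Jx. Pla2g2d, a secreted phospholipase of lymphoid tissue, was at 0.27 ± 0.34 and 0.61 ± 0.50. The shared response of Reg3b moved from 0.34 to 0.32 with array 97 turned, and that of Pla2g2d from 0.44 to 0.13. Reg3b has close paralogs that a probe may not tell apart.

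On the negative side Stk39, a kinase that controls chloride transporters, had nearly the same mean in both strains. It had -0.45, -0.95, -0.97 and -0.01 on DBA/2J arrays 34, 83, 68 and 70, and -0.56, -0.67, -0.17 and -0.86 on BI6Jx arrays 11, 96, 95 and 97. All BI6Jx values lay within the range of DBA/2J, with means of -0.59 ± 0.46 and -0.56 ± 0.29 (SD, n = 4 each) and a strain difference of -0.03 ± 0.42 (SE), or -0.46 turned. Gfi1, a transcriptional repressor of blood cell development, was at -0.35 ± 0.15 in DBA/2J and -0.86 ± 0.70 in BI6Jx, where array 97 alone had -1.87. Nedd8, a ubiquitin-like modifier, was at -0.45 ± 0.38 and -0.66 ± 0.43. Mbd2, a reader of methylated DNA, was at -0.30 ± 0.16 and -0.58 ± 0.58. The phosphatase Ptp4a1, the semaphorin receptor Plxnb3, the ubiquitin ligase Rnf5, the neurotensin receptor Ntsr1, the hormone subunit Lhb and Tph1, which makes serotonin, had shared responses between -0.61 and -0.48. Turned, the shared responses of these 10 genes kept their sign but were smaller, from -0.36 for Stk39 and -0.35 for Ptp4a1 to -0.11 for Tph1 and Mbd2. Array 97 held the lowest BI6Jx value in 9 of the 10 negative genes described, all but Ptp4a1.

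Turning array 97 takes the 1 sign from each of these probes by construction and admits others. With its sign turned, 1 probe (0.0118%) was positive and 8 (0.0945%) were negative on all 8 arrays. The 4 named ones were all negative, namely Rhob, a small GTPase known as an early DNA damage gene, Stx4a of membrane fusion, the zinc finger gene Zfp59 and Sarnp of mRNA export. Rhob was at -0.37, -0.21, -1.56 and -0.31 in DBA/2J and at -1.05, -0.68, -0.52 and, with array 97 turned, -1.26 in BI6Jx. As labelled array 97 had 1.26 for it. The shared response of Rhob was -0.75 with array 97 turned (adjusted p = 0.510, limma).

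**Figure D3:**
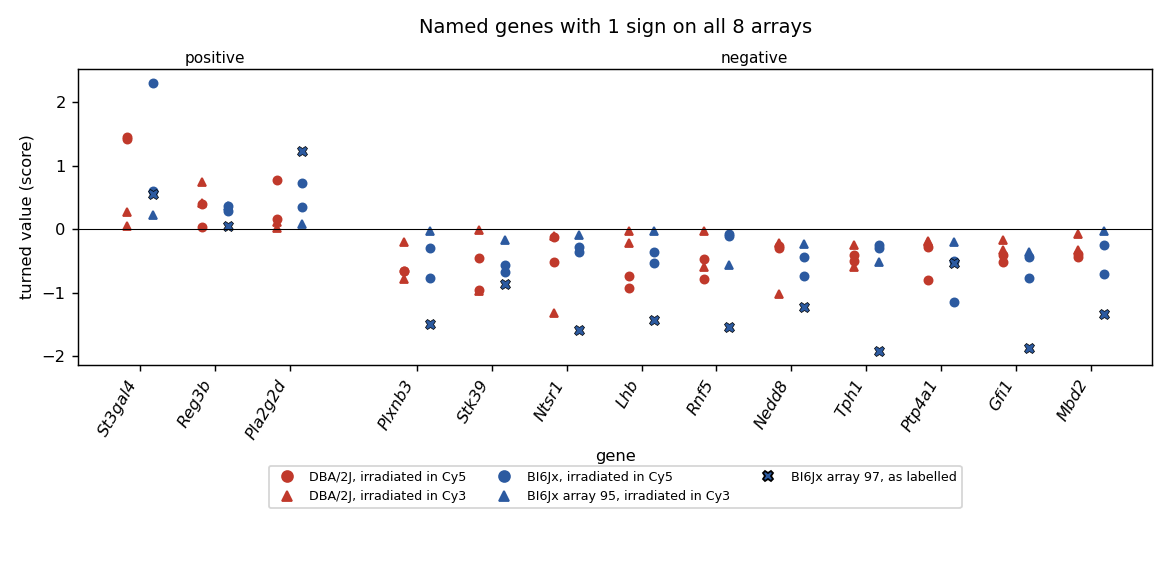
Turned value (score) on each of the 8 arrays for the named genes with 1 sign throughout, DBA/2J in red and BI6Jx in blue; circles have irradiated RNA in Cy5, triangles in Cy3, and the cross is array 97 as labelled. Strains overlap for each gene, and array 97 is the lowest blue point for 9 of the 10 negative genes.

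The strains were next compared for genes whose 4 DBA/2J values all lay on 1 side of the 4 BI6Jx values, with the same sign of the difference in both dye orientations. There were 58 probes with DBA/2J above (0.685% of 8467) and 21 with DBA/2J below (0.248%), of which 12 and 10 were named. None of them passed the adjusted threshold for a difference. Whether these or the later counts of such probes exceed those of arrays in random order was not tested. This balance depended on the centring. Centred on the Gapdh spots instead, which moved the median strain difference over all tested probes from 0.15 to -0.26, there were 3 above and 64 below, and as deposited, where that median was 0.76, there were 7 above and 0 below.

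Among genes with DBA/2J above, Limk1, a kinase that stabilises actin filaments, had 0.52, 0.24, 0.36 and 0.68 on DBA/2J arrays 34, 83, 68 and 70. It had -0.42, -0.40, -0.04 and -0.14 on BI6Jx arrays 11, 96, 95 and 97. All DBA/2J values were positive and all BI6Jx values negative, with means of 0.45 ± 0.19 and -0.25 ± 0.19 (SD, n = 4 each). The difference was 0.70 ± 0.35 (SE), or 0.63 with array 97 turned (adjusted p = 0.999 and 0.630, limma). Capn2, a calcium-activated protease, was at 0.13, 0.14, 0.27 and 0.31 against -0.53, -0.71, -0.11 and -0.03. Cert1, which carries ceramide to the Golgi, was at 0.27 ± 0.27 against -0.39 ± 0.41, again with opposite signs on all arrays. Capn2 and Cert1 differed by 0.56 and 0.66 as labelled and by 0.54 and 0.65 turned.

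2 members of cytokine pathways were in the same group. Irf9, the DNA-binding part of the interferon-activated complex ISGF3, had -0.20, 0.11, 0.21 and 0.45 in DBA/2J and -0.80, -0.51, -0.32 and -0.73 in BI6Jx, a difference of 0.73 ± 0.36 (SE). Il10rb, a receptor subunit for interleukin 10, was at 0.07 ± 0.45 against -0.67 ± 0.46. The order of both also held without array 97. With its sign turned that array had 0.73 for Irf9 and 1.32 for Il10rb, above all DBA/2J values, and the differences were 0.37 and 0.08. Ak1, an adenylate kinase, had the largest difference of the named genes (1.25 ± 0.61, SE), which rested on -2.81 on array 97 and became -0.16 with that sign turned. Mpdu1 of protein glycosylation, the transcription factors Gmeb1 and Zbtb7a, and Nucb1, a calcium-binding Golgi protein, differed by 0.59 to 0.76, and by 0.15 to 0.43 with array 97 turned.

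Among genes with DBA/2J below, Atp2a3, the calcium pump of the endoplasmic reticulum in lymphocytes and platelets, had the smallest p of the named ones. It had -0.54, -0.28, -1.09 and -0.93 on DBA/2J arrays 34, 83, 68 and 70, and 0.28, 0.17, 0.54 and 0.59 on BI6Jx arrays 11, 96, 95 and 97. All DBA/2J values were negative and all BI6Jx values positive, and the means were -0.71 ± 0.37 and 0.39 ± 0.20 (SD, n = 4 each). The difference of -1.11 ± 0.35 (SE) stayed negative with array 97 turned (-0.81), on the Cy5 arrays alone (-0.64) and on the Cy3 arrays alone (-1.57), with adjusted p = 0.999 (limma). With array 97 turned the strains overlapped, since that array then had -0.59. Atp2b2, a calcium pump of the plasma membrane, was at -0.45, -0.18, -1.20 and -0.42 against 0.29, -0.02, 0.43 and 0.01. Its difference was -0.74 ± 0.39 (SE), and -0.73 with array 97 turned.

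Nfic, a nuclear factor I transcription factor, was at -0.53 ± 0.55 in DBA/2J and 0.43 ± 0.30 in BI6Jx. Ptprcap, which binds the phosphatase CD45 on lymphocytes, was at -0.23 ± 0.48 against 0.77 ± 0.43. Sec61a1, the channel through which new proteins enter the endoplasmic reticulum, was at -0.40 ± 0.41 against 0.39 ± 0.42, and Tcof1 of ribosomal RNA synthesis at -0.42 ± 0.40 against 0.24 ± 0.11, both with opposite signs on all arrays. Turning array 97 moved the difference from -0.96 to -0.53 for Nfic, to -0.42 for Ptprcap, from -0.79 to -0.29 for Sec61a1 and from -0.66 to -0.55 for Tcof1. The cohesin subunit Smc1a, the mediator subunit Med29, the orphan receptor Gpr50 and Rhox2a, a homeobox gene with near-identical copies, differed by -1.03 to -0.68, and by -0.50 to -0.30 with array 97 turned.

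**Figure D4:**
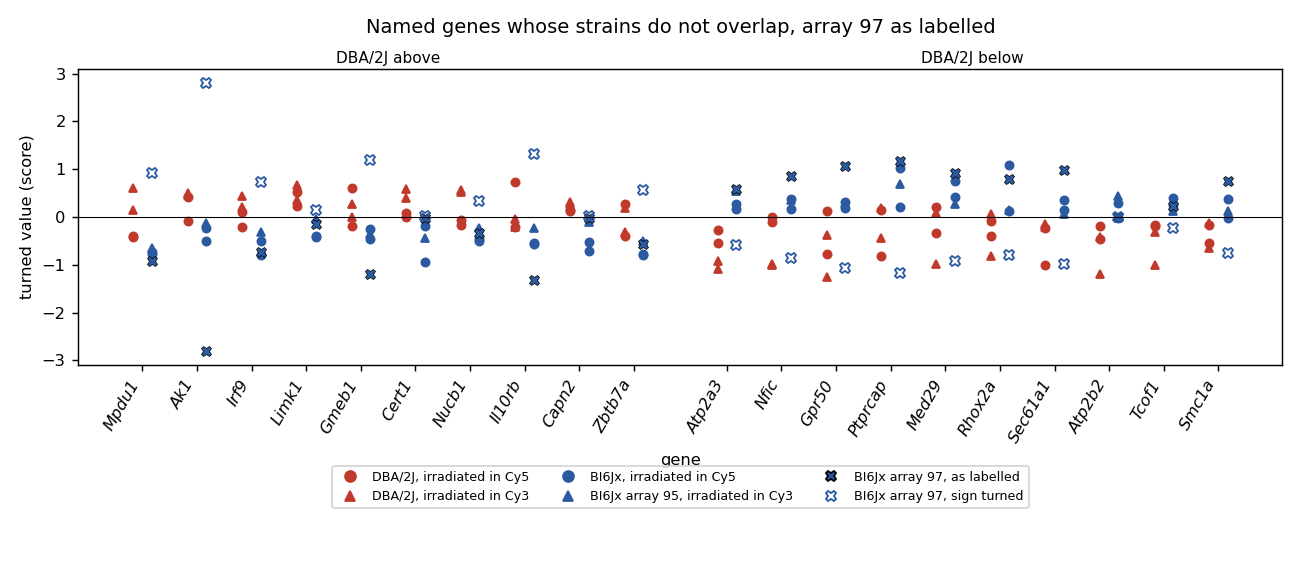
Turned value (score) on each array for the named genes whose strains do not overlap as labelled, DBA/2J in red and BI6Jx in blue; filled crosses are array 97 as labelled and open crosses its turned sign. For Limk1, Capn2 and Atp2b2 both crosses lie beyond all DBA/2J values, and for Ak1 the crosses lie at -2.81 and 2.81.

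Only a few probes kept their order whichever way array 97 was read. There were 133 probes above (1.57%) and 155 below (1.83%) with its sign turned, and 13 of the 58 and 2 of the 21 given as labelled were among them. These 15 probes had values near 0 on array 97 (-0.14 to 0.18), and 3 of them could be named, Limk1, Capn2 and Atp2b2. Without array 97, 255 of 10461 probes lay above (2.44%) and 217 below (2.07%).

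With array 97 turned, genes with DBA/2J above included Tnfsf10, Syngr2, Rpl21, Klra4, Rpl6, Sorbs3, Dcn and Nnat. Tnfsf10 encodes TRAIL, a death ligand of the immune system, and had 0.42, 0.45, 0.64 and 0.40 on DBA/2J arrays 34, 83, 68 and 70. On BI6Jx arrays 11, 96 and 95 it had -0.65, -0.06 and -1.38, and array 97 gave 0.86 as labelled and -0.86 turned. The SD of the 4 DBA/2J values was 0.11, and the difference was 1.22 ± 0.38 (SE) with array 97 turned and 0.79 ± 0.55 as labelled. Klra4 belongs to a family of natural killer receptors whose gene content differs between these strains, and Rpl21 and Rpl6 have many processed copies, so their probes may read more than 1 gene.

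The p53 list was measured for 10 of its 18 genes on the array, 5 of them on all 8 arrays. Its members did not move together. The median strain response was -0.30 in DBA/2J and -0.21 in BI6Jx, against 0.06 and -0.06 over all tested probes, and 0 members had an unadjusted p under 0.05 for a difference (1.6% of all probes) or a shared response (9.67%). Turned, 1 member had such a p for a difference (7.19% of all probes), and this was not Cdkn1a. Cdkn1a, the cell cycle inhibitor p21 and the classic p53 target, did not separate the strains as labelled. With array 97 turned it was the 1 of 5 members with DBA/2J above without overlap, beside 1.57% of all probes. With array 97 left out it was the 1 of 8, beside 2.44%. It had 0.62, 0.38, 0.28 and 0.16 on DBA/2J arrays 34, 83, 68 and 70, and -0.45, -0.27 and -0.11 on BI6Jx arrays 11, 96 and 95. Array 97 had 0.38 as labelled, which lies within the DBA/2J values, or -0.38 with its sign turned, which lies within those of BI6Jx. The DBA/2J mean was 0.36 ± 0.19 and the BI6Jx mean -0.11 ± 0.36 as labelled or -0.30 ± 0.15 turned (SD, n = 4 each). The difference was 0.47 ± 0.36 or 0.66 ± 0.37 (SE; adjusted p = 0.999 and 0.630, limma).

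A RefSeq promoter of Cdkn1a is shown because p53 acts on this gene directly. Its start is the one with the lowest coordinate that RefSeq gives for Cdkn1a. Whether the transcript that the probe reads begins there was not checked. These are the 120 bases before that start, at chr17:29090859-29090978 on the plus strand of GRCm38.p6. ACATGT, the core of a p53 half-site, is in capitals.
Cdkn1a: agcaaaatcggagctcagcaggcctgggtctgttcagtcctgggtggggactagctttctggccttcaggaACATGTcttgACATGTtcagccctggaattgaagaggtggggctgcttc
The letters ACATGT read the same on both strands. They were searched after this promoter had been seen, and stand 2 times in it. They occur in 4.58% of 32851 RefSeq promoters over the 250 bases before the start, and 2 or more times in 0.247%. A match is a description of the letters and not evidence of binding.

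Other p53 list members followed neither strain pattern. Btg2, an antiproliferative gene, had 1.15, -0.33, -0.44 and 0.63 in DBA/2J and -0.62, -0.16, -0.15 and -1.79 in BI6Jx, a difference of 0.93 ± 0.57 (SE) that was 0.04 with array 97 turned. Apaf1, which forms the apoptosome, had a shared response of -0.65 ± 0.28 as labelled and -0.05 turned. Of the DNA damage and repair list, 19 of 31 genes were tested, with 0 differences and 1 shared response at an unadjusted p under 0.05, beside 1.6% and 9.67% of all probes. Its median difference was 0.21, and 0.24 with array 97 turned. Brca2, a gene of double-strand break repair, was at -0.77 ± 0.66 in DBA/2J and 0.21 ± 0.50 in BI6Jx, a difference of -0.98 that was -0.66 with array 97 turned. The apoptosis list (20 of 31 tested) had a median strain difference of 0.17, close to the 0.15 over all tested probes, and 0.15 with array 97 turned.

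In the interferon list 20 of 28 genes were tested. 16 of the 20 had the higher response in DBA/2J, beside 9294 of 14710 over all probes, with a median difference of 0.11 that lay below the 0.15 of all probes. With array 97 turned 13 of the 20 did, beside 8183 of 14710 over all probes. Isg15, a ubiquitin-like protein made after interferon, had -0.83, 0.29, 0.28 and 0.28 in DBA/2J and -1.81, -0.58 and -1.53 on BI6Jx arrays 11, 96 and 97, with no value on array 95. Its difference of 1.37 ± 0.55 (SE) turned to -0.16 with array 97 turned. Usp18, which removes ISG15 from proteins, had 0.70 and 0.51 on DBA/2J arrays 83 and 70 and -0.55, 0.00, -1.15 and -0.09 on BI6Jx arrays 11, 96, 95 and 97. Its difference hardly depended on array 97 (1.05 ± 0.58 and 1.01 ± 0.57, SE).

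Of the cytokine list, 26 of 35 genes were tested, with 1 difference on each side at an unadjusted p under 0.05, beside 1.6% of all probes. The list median difference was 0.23, and 0.21 with array 97 turned. Tnf, the inflammatory cytokine, had 1.45, 1.99, -0.29 and 0.10 on DBA/2J arrays 34, 83, 68 and 70 and 0.07 and -1.64 on BI6Jx arrays 96 and 95. It had no value on arrays 11 and 97, so its difference of 1.60 ± 0.52 (SE; adjusted p = 0.999, limma) does not depend on how array 97 is read. Ltb, lymphotoxin beta of lymphoid follicles, had a difference of -3.18 ± 1.04 as labelled and 0.26 turned. Cxcl13, which draws B cells into follicles, had a shared response of 1.21 ± 0.34 (SE; adjusted p = 0.504, limma) and 1.19 turned. This came from the Cy5 arrays, at 3.29 and 1.48 in DBA/2J and 3.97 and 2.06 in BI6Jx, whereas the Cy3 arrays ran from -1.49 to 0.52. Among B cell genes Tnfrsf13b, the receptor TACI, had 6.22, 4.85, 0.58 and -1.05 in DBA/2J and 5.22 and -6.14 on BI6Jx arrays 96 and 95. Its difference of 3.11 ± 0.74 (SE; adjusted p = 0.999, limma) rests on 2 BI6Jx arrays of opposite sign. Jun, an immediate early gene, had a shared response of 2.22 ± 0.28 (SE; adjusted p = 0.233, limma), or 1.53 turned, with values on 2 BI6Jx arrays only. It too was higher on the Cy5 arrays, at 3.53, 2.99 and 4.15 on arrays 34, 83 and 96. On Cy3 arrays 68, 70 and 97 it had 0.51, -0.33 and 1.37.

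Genes of the exocrine pancreas, an organ whose tail lies next to the spleen, spread widely on these 8 arrays. Of 28 list genes on the array, 22 (78.6%) were tested and 20 had values on all 8 arrays. The list median was -0.35, -0.05, -0.89 and -0.10 on DBA/2J arrays 34, 83, 68 and 70, and 0.26, 0.92 and 0.78 on BI6Jx arrays 11, 96 and 95. On array 97 it was -2.13 as labelled and 2.13 turned. All DBA/2J medians were thus negative and 3 BI6Jx medians were positive. The reading of array 97 changed the size of the median strain difference but not its sign. That sign changed under other settings, given at the end. The median difference was -0.48 as labelled, with 12 of 22 genes lower in DBA/2J, and -1.19 turned, with 18 of 22 lower. Over all probes, 5416 of 14710 were lower as labelled and 6527 turned. At an unadjusted p under 0.05, 1 and 10 list genes were lower, beside 128 and 628 of 14710 over all probes. Whether the dissected spleens carried pancreatic tissue was not tested, and in bulk RNA more cells of a type and more RNA per cell cannot be told apart.

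Prss1, a trypsinogen, had -2.66, -1.27, -2.53 and -0.13 on DBA/2J arrays 34, 83, 68 and 70. It had 0.24, 1.64 and 1.95 on BI6Jx arrays 11, 96 and 95, and array 97 had -4.71 as labelled. All DBA/2J values were negative, and BI6Jx was positive but for array 97. The difference was -1.42 ± 1.39 (SE; adjusted p = 0.999, limma) as labelled and -3.78 ± 0.75 turned (adjusted p = 0.474, limma). The chymotrypsinogen Ctrb1 had -2.28, -1.36, -3.51 and 0.24 in DBA/2J, -0.04, 1.99 and 1.66 on arrays 11, 96 and 95, and -4.36 on array 97. Reg1, a secreted lectin of acinar cells, followed a like order, with -1.06, -1.20, -2.03 and -0.06 against -0.04, 2.67, 1.13 and, on array 97, -6.07. Ctrb1 and Reg1 were added after their values had been seen. These 3 genes were lower in DBA/2J. As labelled, 10 of the 22 tested list genes were higher there, beside 9294 of 14710 over all probes. On the Cy3 arrays alone the difference was 0.05 for Prss1, -0.28 for Ctrb1 and 1.42 for Reg1. Amy1, an amylase that was not on the list and has a near-identical pancreatic relative, had a mean of -1.60 ± 1.37 in DBA/2J. Its BI6Jx mean was 0.09 ± 3.41 as labelled and 2.47 ± 1.87 turned (SD, n = 4 each).

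Pnlip, the pancreatic lipase, was the list gene with the smallest p as labelled. It had -0.18, 0.31, -3.04 and -1.85 in DBA/2J and 2.46, 5.60, -2.22 and -2.55 in BI6Jx, so that the difference lay on the Cy5 arrays (-3.96) and was -0.06 on the Cy3 arrays. Over all arrays it was -2.01, and -3.29 with array 97 turned. Rnase1, a secreted ribonuclease, differed by -1.14 ± 0.54 (SE) as labelled and -2.02 ± 0.57 turned. Among islet hormones Ins1 differed by -0.96, Ins2 by 0.10 and Sst by 0.27, and by -0.67, 0.54 and 0.42 with array 97 turned. Trypsinogens form a multigene family, and Prss1, Prss2, Prss3 and Try4 may share signal on these probes.

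The promoters of Prss1 and Ctrb1 are shown because acinar enzyme genes share the factor PTF1, whose site joins an E-box, CACCTG, and a TC-box, TTTCCC. These are the 200 bases before the start in RefSeq (GRCm38.p6), on the plus strand at chr6:41458730-41458929 for Prss1 and on the minus strand at chr8:111691011-111691210 for Ctrb1. Capitals mark either motif on either strand.
Prss1: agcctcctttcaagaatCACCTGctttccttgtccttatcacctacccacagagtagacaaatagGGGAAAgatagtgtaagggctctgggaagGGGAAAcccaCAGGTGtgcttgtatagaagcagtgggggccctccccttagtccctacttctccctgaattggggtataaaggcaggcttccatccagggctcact
Ctrb1: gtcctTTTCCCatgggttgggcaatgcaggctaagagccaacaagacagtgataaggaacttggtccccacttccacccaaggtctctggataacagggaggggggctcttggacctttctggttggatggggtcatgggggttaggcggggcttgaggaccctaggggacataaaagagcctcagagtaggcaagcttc
Prss1 holds 4 matches, with an E-box next to a TC-box, and Ctrb1 holds 1. CACCTG (or CAGGTG) occurs in 17.2% of the 32851 promoters over 250 bases, and TTTCCC (or GGGAAA) in 21.9%.

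**Figure D5:**
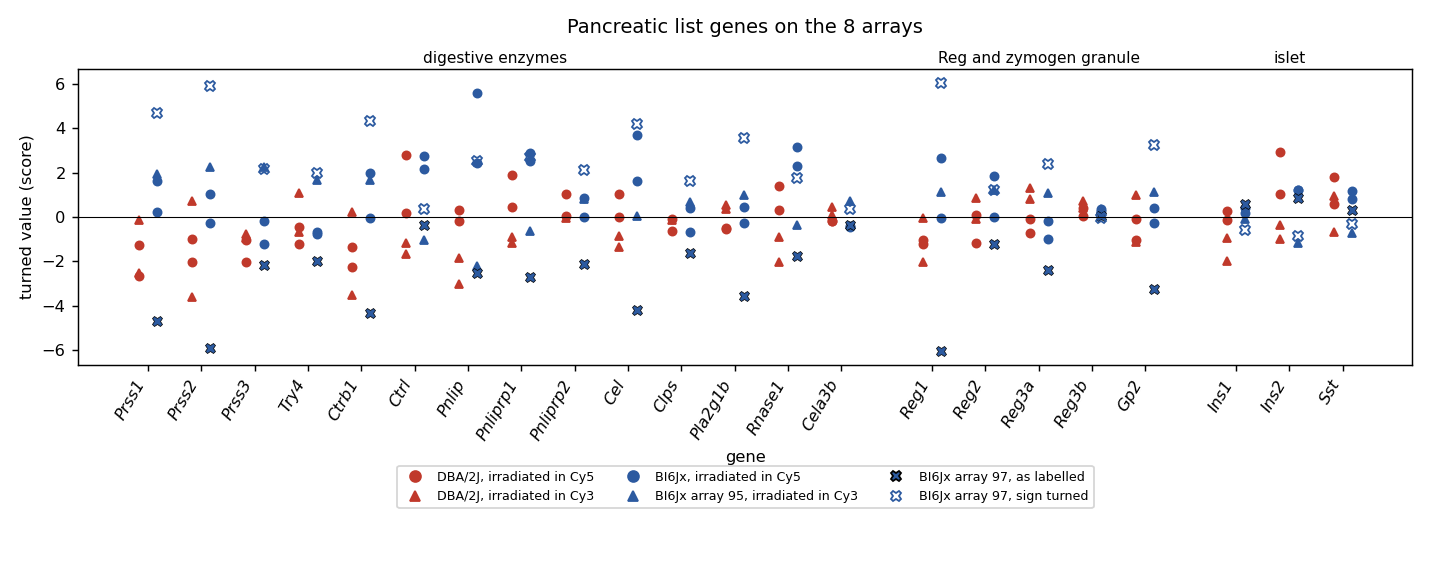
Turned value (score) on each array for the 22 tested genes of the pancreatic list, DBA/2J in red and BI6Jx in blue; filled crosses are array 97 as labelled and open crosses its turned sign. For Prss1, Ctrb1 and Reg1 the red points lie mostly below 0 and the blue circles and triangles mostly above, with array 97 far on either side (-4.71, -4.36 and -6.07 as labelled).

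Genes outside that list with DBA/2J below when array 97 was turned included Kdr, Sp1 and Lect2, which were chosen for that order. Kdr, a VEGF receptor of endothelium, had -0.81, -0.52, -1.03 and -0.79 on DBA/2J arrays 34, 83, 68 and 70. It had 0.45, 0.58 and 1.43 on BI6Jx arrays 11, 96 and 95 and -2.22 on array 97. The DBA/2J arrays agreed closely (mean -0.79 ± 0.21, SD, n = 4), and the difference was -0.85 ± 0.75 (SE) as labelled and -1.96 ± 0.39 turned (adjusted p = 0.474, limma). The transcription factor Sp1 was at -1.17 ± 0.55 in DBA/2J, and at -0.11 ± 1.86 or 1.28 ± 1.15 in BI6Jx. Lect2, a factor secreted by liver, was at -1.08 ± 0.67, and at -0.06 ± 2.87 or 1.99 ± 1.73.

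Lists for the cells of spleen were compared next, with array 97 as labelled. The median strain difference was 0.25 for B cell genes (19 tested), 0.32 for plasma cell genes (4), 0.21 for T cell genes (15) and 0.28 for natural killer and cytotoxic genes (8). It was 0.24 for macrophage genes (16), 0.02 for neutrophil and granule genes (16), 0.36 for dendritic cell genes (11), -0.07 for erythroid genes (18), 0.15 for platelet and megakaryocyte genes (7) and 0.12 for stromal and endothelial genes (16). Over all tested probes it was 0.15. In these 10 lists 1 member, Tnfrsf13b, had an unadjusted p under 0.05 for a difference, beside 1.6% of all probes. Turned, 3 B cell, 3 natural killer, 1 dendritic cell and 3 stromal genes did, beside 7.19% of all probes. Of B cell genes on the array 90.5% were tested, above the 68% of all probes, and of T cell genes 60%.

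Array 97 moved several of these lists. With its sign turned the median difference of neutrophil genes was 0.54 and that of dendritic cell genes -0.35, beside 0.11 over all probes. It was -0.06 for B cell, 0.30 for plasma cell, 0.37 for T cell, 0.45 for natural killer, 0.44 for macrophage, -0.08 for erythroid, -0.01 for platelet and 0.24 for stromal genes. T cell genes followed the dyes more than the strain: their list median was 2.35 and 0.29 on DBA/2J arrays 34 and 83 and 0.56 and 0.75 on BI6Jx arrays 11 and 96, with irradiated RNA in Cy5, but -0.01, -0.61 and -1.04 on arrays 68, 70 and 95, with it in Cy3. Array 97 had 0.70 as labelled. Natural killer genes ran likewise, from 0.84 to 2.00 on the Cy5 arrays and from -1.40 to 0.15 on the Cy3 arrays.

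Housekeeping and stress lists were set beside the same median of all probes, 0.15 as labelled and 0.11 with array 97 turned. The 51 ribosomal protein genes had a median difference of 0.20, with 36 higher in DBA/2J, beside 9294 of 14710 over all probes. Rps6 and Rps15 differed by 0.67 ± 0.37 and 0.66 ± 0.38 (SE). With array 97 turned the median was 0.41, with 34 higher, beside 8183 of 14710 over all probes. Rps6 and Rps15 then differed by 0.67 and 0.53. The median difference was 0.16 for the mitochondrial respiratory chain (30 genes; 0.08 turned), 0.24 for the cell cycle (22; 0.14 turned), 0.15 for heat shock genes and chaperones (17; -0.04 turned) and 0.05 for antioxidant genes (23; -0.08 turned). It was -0.28 for immediate early genes (16; 0.19 turned), 0.11 for TGF-beta and extracellular matrix (22; -0.19 turned) and -0.07 for adipose genes (8; -0.36 turned).

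7 genes known to differ between these parents in allele or copy number were tested, among them Hc, which encodes complement C5, and Ahr. Their median response was 0.16 in DBA/2J and -0.40 in BI6Jx, a median difference of 0.44 (0.58 turned), with 0 at an unadjusted p under 0.05. A constant strain difference in these genes cannot show on arrays that hold 1 strain each. Of genes the study discusses, Ltbp2, a matrix protein that binds fibrillin, had 1.89, 1.86, 1.65 and 0.24 on DBA/2J arrays 34, 83, 68 and 70, and 2.48, 1.11, -0.74 and 2.35 on BI6Jx arrays 11, 96, 95 and 97. It was positive on 7 of 8 arrays, with a shared response of 1.35 ± 0.38 (SE; adjusted p = 0.504, limma) as labelled and 0.77 turned. Tgfbi, a matrix protein induced by TGF-beta, ran from 1.45 to 4.02 on 3 Cy5 arrays and from -2.61 to 2.18 on the Cy3 arrays, where array 97 as labelled was the highest. Notch3, Top3a and Smcp, with no value on array 97, differed by 0.45, 0.28 and 0.55.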

How the data were processed

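Spleen RNA of irradiated and sham-irradiated mice was measured on 2-colour spotted oligonucleotide arrays, of which the 8 of DBA/2J and BI6Jx were compared. The deposited table gives each spot of an array 1 number above or below 0, used here as a score. Per the study's methods, poor and low spots were filtered, local background was subtracted and Lowess was applied. Whether the scores follow these steps, and their scale and direction, is not given in the sources used here. Depth has no meaning for arrays, and their number limits the precision.

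Blank, buffer and control spots were left out, spots of a probe averaged, and arrays centred on the probe median. Probes were named by RefSeq accession (GRCm38.p6), 6518 of 21618. limma 3.58.1 in R 4.3.3 (lmFit, eBayes) fitted 4 cells of strain and dye, with Benjamini-Hochberg adjustment over 14710 probes. The fit was tested on simulated data with known strain differences. It passed 0 of 50 probes at a difference of 1, 3 of 50 at 2, 25 of 50 at 4 and 42 of 50 at 8. There were 0 false calls in the simulated data. In such data a difference of 1, the size of many given above, would mostly be missed. Neither figure need hold for the arrays themselves, which disagreed on what the dyes did and may share mice.

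Named genes are up to 10 on each side with 1 sign on all arrays, ordered by the smaller strain response, up to 10 on each side without overlap, ordered by p (both also with array 97 turned), those with the smallest p in each of 26 lists, and those of the study. Members and lists were chosen with earlier results of these data known. Some results under this rule are not reported here. Other centrings, scalings, weights, filters, single orientations and the removal of each array were tried.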

Additional observations from a re-analysis of the deposited data

Results flagged for a closer look

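Within a group of 4 arrays, 1 array stood far from the other 3 in 13 of the 178 sets of reported genes and list medians examined, by the gap to the nearest other array as a share of the whole range. Chance gives about 1 in 20. Among genes this share was 0.908 for Nedd8 in DBA/2J (array 68), 0.846 for Tph1 in BI6Jx (array 97) and 0.842 for Ptp4a1 in DBA/2J (array 83). It was 0.862 for Ak1 in DBA/2J (array 83) and 0.857 for Ak1 in BI6Jx (array 97). It was 0.856 for Gpr50 in BI6Jx (array 97) and 0.888 for Sec61a1 in DBA/2J (array 34). It was 0.99 for Isg15 in DBA/2J (array 34), 0.852 for Ltbp2 in DBA/2J (array 70), 0.883 for Rhob in DBA/2J (array 68) and 0.845 for Ins2 in BI6Jx (array 95). For list medians in BI6Jx it was 0.894 for T cell genes (array 95) and 0.848 for TGF-beta and extracellular matrix genes (array 97).

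In 8 genes all arrays with a value of one strain lay on one side of 0 and all of the other strain on the other side, with array 97 as labelled. The strain difference was 0.70 for Limk1, 0.66 for Cert1, 0.56 for Capn2 and 1.05 for Usp18, which had values on 2 DBA/2J arrays only and was within rounding of 0 on array 96. It was -1.11 for Atp2a3, -0.96 for Nfic, -0.79 for Sec61a1 and -0.66 for Tcof1. None of these differences passed the adjusted threshold (adjusted p = 0.999, limma). All of these genes but Usp18 had been named because their strains did not overlap. Of 8467 probes, 58 (0.685%) did so with DBA/2J above and 21 (0.248%) with DBA/2J below. The place of 0 depends on the centring, and centred on the Gapdh spots 3 lay above and 64 below. The share of all probes with opposite signs is not given here.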

How the results depend on the processing

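The count of probes that differ between the strains stayed at 0 (limma, adjusted p under 0.05) under each alternative except as deposited, where it was 1. As deposited, 219 probes passed for a shared response, 3 for DBA/2J and 39 for BI6Jx, with 1 spread pooled over all probes. With all 38 arrays in the fit, 97 passed for a shared response and 23 for BI6Jx. With array 97 turned 2 passed for BI6Jx. With the dye pattern of the other 4 strains subtracted, an alternative chosen after seeing the data, 2 passed for BI6Jx. Leaving out each array in turn gave 0 for the difference and DBA/2J, 0 to 3755 for a shared response and 0 to 3184 for BI6Jx. The highest counts came without BI6Jx replicate 2 (array 95), a fit that leaves array 97 as the only BI6Jx array with irradiated RNA in Cy3.

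The correlation between the strains' responses (0.6) was -0.03 with array 97 turned, -0.06 without arrays 68 and 97 (chosen after seeing the data) and -0.08 to 0.74 leaving out each array, the lowest without array 97. Probes with 1 positive sign (12) were 5 as deposited, 1 with array 97 turned, 23 after subtracting the dye pattern and 47 without arrays 68 and 97. They were 15 to 135 leaving out each array. Probes with 1 negative sign (41) were 0, 2 centred on Gapdh, 8 with array 97 turned, 182 without arrays 68 and 97, and 49 to 190 leaving out each array. Probes with DBA/2J above (58) were 7 as deposited, 3 centred on Gapdh, 133 with array 97 turned, 35 after subtracting the dye pattern, 350 without arrays 68 and 97, and 66 to 302 leaving out each array. Probes with DBA/2J below (21) were 0, 64, 155, 47 and 310 in that order, and 35 to 217.

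Of the tested gene values, differences changed sign with array 97 turned for Ak1 (-0.16), Isg15 (-0.16) and Ltb (0.26). On the Cy3 arrays alone they did for Prss1 (0.05), Prss2 (0.41), Reg1 (1.42), Sp1 (0.16) and Lect2 (0.48). As deposited Reg1 (0.06) and the shared responses of Mbd2 (0.01) and Rhob (0.02) did. Leaving out each array gave -3.09 to 0.24 for Prss1, -2.79 to 1.30 for Prss2, -2.31 to 1.29 for Reg1, -1.76 to 0.07 for Kdr and -2.17 to 0.13 for Lect2. The cause was not tested. The other gene differences and shared responses tried kept their sign. The median difference of the pancreatic list was 0.08 as deposited, 0.34 on the Cy3 arrays and 0.23 without array 95. No paired analysis was possible because the labels do not say which arrays share a pair of mice.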
